A study of Mus musculus with 2 samples.

Results

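The 39 protein-coding *Hox* genes of the mouse were examined for peaks of a chromatin immunoprecipitation followed by sequencing (ChIP-seq) experiment on a Dux-type transcription factor. The genes were taken from the RefSeq gene table of the GRCm38.p6 assembly, the primary assembly of mm10, as every protein-coding symbol made of Hoxa, Hoxb, Hoxc or Hoxd and a number, and they are 39 of 21896 protein-coding genes. A peak was counted for a gene when its summit, the position of highest coverage, lay inside the gene or within 5 kb of either end. By that rule 12 of the 51356 peaks lay at *Hox* genes. A window reaching 100 kb either side of each of the 4 clusters held 36 peaks, these 12 included.

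The study used C2C12, an established mouse myoblast line, in the form of a single clone that carried a doxycycline-inducible, codon-altered transgene named MMH. MMH is a chimera in which the part of mouse Dux up to the end of its homeodomains is followed by the carboxy-terminal part of human DUX4. Cells of both libraries carried MMH and were induced with 2 ug/ml doxycycline for 18 h. The DUX4 antisera MO488 and MO489 were used for the 1 immunoprecipitation and an antibody labelled anti-HA for the 1 control, although the study's design text names GFP in place of HA as the control antibody. After removal of duplicates the peak caller used 26253175 fragments of the antisera library and 23412256 of the control. With 1 library per antibody there was no replicate check, no test between groups could be made, and the values of a peak describe that peak within this list. Only a single clone was sampled, the protein was a chimera made from a transgene, and no expression was measured, so neither the myoblast markers of the line nor the activity of any *Hox* gene could be checked here.

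*Hox* genes encode homeodomain transcription factors that give cells of the embryo their position along the head-to-tail axis and along the limbs. Vertebrates carry them in 4 clusters, and genes of the same number in different clusters are paralogues, related by duplication of an ancestral cluster. Low-numbered genes lie at one end of a cluster and are used early and towards the head, whereas high-numbered genes lie at the other end and are used late, towards the tail and in the outer limb. Dux and DUX4 are double-homeodomain factors of the early embryo, so the protein mapped here and the products of the genes described here share a class of DNA-binding domain. In many cells that do not use them, *Hox* clusters are held silent by Polycomb complexes.

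Peaks lay at 14 of the 39 *Hox* genes (35.9%). Over all 21896 protein-coding genes the same rule gave 43.2%, and on the 4 chromosomes that carry the clusters it also gave 43.2%. Peaks were more frequent at long genes, and over the 14011 coding genes whose length lies in the range of the *Hox* genes (1784 to 44009 bp) the share was 33.6%. Counting only summits within 5 kb of either gene end, the *Hox* count stayed at 14 while the share of all coding genes was 27.5%, below that of the *Hox* genes. The share of *Hox* genes with a peak therefore lay near that of genes of like length, and the count is not read as a result about the *Hox* genes. The 14 genes shared 12 peaks, since 6 of the peaks were within reach of more than a single *Hox* gene, so neighbouring genes are not independent observations.

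The peaks at *Hox* genes were of ordinary to modest strength. Each peak carries the authors' own values: the pileup, a count of antisera fragments that cover the summit, and the fold enrichment, which is that number over the local background with 1 added to both. The 12 peaks had a median fold enrichment of 7.08 and a median pileup of 35 fragments. Over all peaks the medians were 8.02 and 41. A fold enrichment of 10 or more was reached by 4 of the 12 (33.3%) and by 38.1% of all peaks. Taking the best peak of each gene, the median was 7.18 for the 14 *Hox* genes and 11.6 for all coding genes with a peak. This comparison was not adjusted for gene length or for the peaks that *Hox* genes share, so it does not set *Hox* genes against genes of like length.

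**Figure D1:**
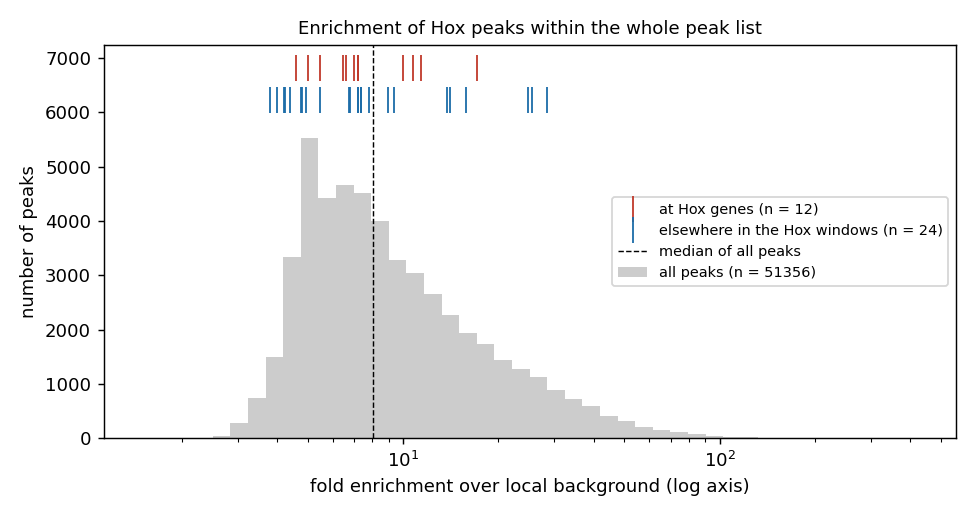
Number of peaks (y axis) by fold enrichment over local background (x axis, log scale) for the whole list of 51356 peaks in grey, with the 12 peaks at *Hox* genes marked in red and the other 24 peaks of the 4 windows in blue; the height of the marks carries no value. The 12 red marks lie on both sides of the median of all peaks at 8.02 (dashed), and the 3 highest marks, from 24.8 to 28.6, belong to peaks away from *Hox* genes.

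In the Hoxa cluster a peak lay at 52247536 on chromosome 6, 1726 bp upstream of *Hoxa11*, a gene of the limb and the reproductive tract, and inside the antisense gene *Hoxa11os*. It had 35 fragments and a fold enrichment of 7.18 (95% Poisson interval of the pileup with the background held fixed, 5.06 to 9.91). These intervals, here and below, cover counting error only. No peak within 5 kb was found for *Hoxa3* to *Hoxa7*, *Hoxa9*, *Hoxa10* and *Hoxa13*.

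In the Hoxb cluster 2 peaks lay at *Hox* genes. In *Hoxb3*, at 96312678 on chromosome 11, 32 fragments gave a fold enrichment of 6.58 (4.57 to 9.21). In *Hoxb2*, of the hindbrain, 22 fragments at 96352517 gave 4.59 (2.95 to 6.84), the lowest value at any *Hox* gene, and only 7.96% of all peaks ranked below it by −log10 p. The *Hoxb2* summit also lay inside the noncoding gene *Hoxb3os* and 4587 bp from the end of *Hoxb3*. Genes *Hoxb4* to *Hoxb9*, *Hoxb13* and *Hoxb1* had no peak within 5 kb, and the summit nearest to *Hoxb13* lay 45453 bp away, the greatest such distance among the 39 genes.

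In the Hoxc cluster peaks lay at the high-numbered end. *Hoxc13*, a gene of hair and nail formation, had a summit at 102920830 on chromosome 15, 301 bp outside its lower end. The peak was 763 bp wide, with 50 fragments and a fold enrichment of 10.0 (7.49 to 13.2). Inside *Hoxc12* the summit at 102937816 had 38 fragments and a fold enrichment of 6.45 (4.61 to 8.79). No *Hoxc* gene from *Hoxc11* to *Hoxc4* had a peak within 5 kb. Local background on chromosome 15 was raised above its genome-wide floor of 4.01 fragments in 81.3% of peaks, against 14.9 to 16.5% on the chromosomes of the other 3 clusters, and in 9 of the 10 peaks of the Hoxc window. The highest background in the window was 5.61 fragments. The part of this in the Hoxc values was not tested.

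The Hoxd cluster, which patterns digits and genitalia with its high-numbered genes and the trunk with its low-numbered ones, had a peak at 7 of its 9 genes, through 6 peaks, against 42.0% of the coding genes of chromosome 2. This count depends on the distance: 3 genes had a summit inside or within 1 kb, and 2 had it inside, as many as in Hoxb. In *Hoxd13*, a gene of the digits, 53 fragments at 74670634 on chromosome 2 gave a fold enrichment of 10.8 (8.12 to 14.03), and this summit also lay 4379 bp from *Hoxd12*. Beyond the end of *Hoxd1*, by 2800 bp, 56 fragments at 74767942 gave 11.4 (8.64 to 14.7), the highest value of the cluster. A pair of peaks 831 and 1683 bp past *Hoxd8* and 3229 and 2377 bp before *Hoxd3* had 35 fragments each. Their fold enrichments were 5.45 (3.84 to 7.52) over a background of 5.61 and 7.18 (5.06 to 9.91) over the floor. With equal pileups the 2 values differ through the background alone, which the intervals hold fixed, so the intervals cannot compare them. The peak at 74753049, inside the noncoding gene *Haglr* and 4778 bp past *Hoxd3*, was weaker, with 24 fragments and 4.99-fold enrichment (3.27 to 7.32). *Hoxd9* and *Hoxd4* had no peak within 5 kb.

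**Figure D2:**
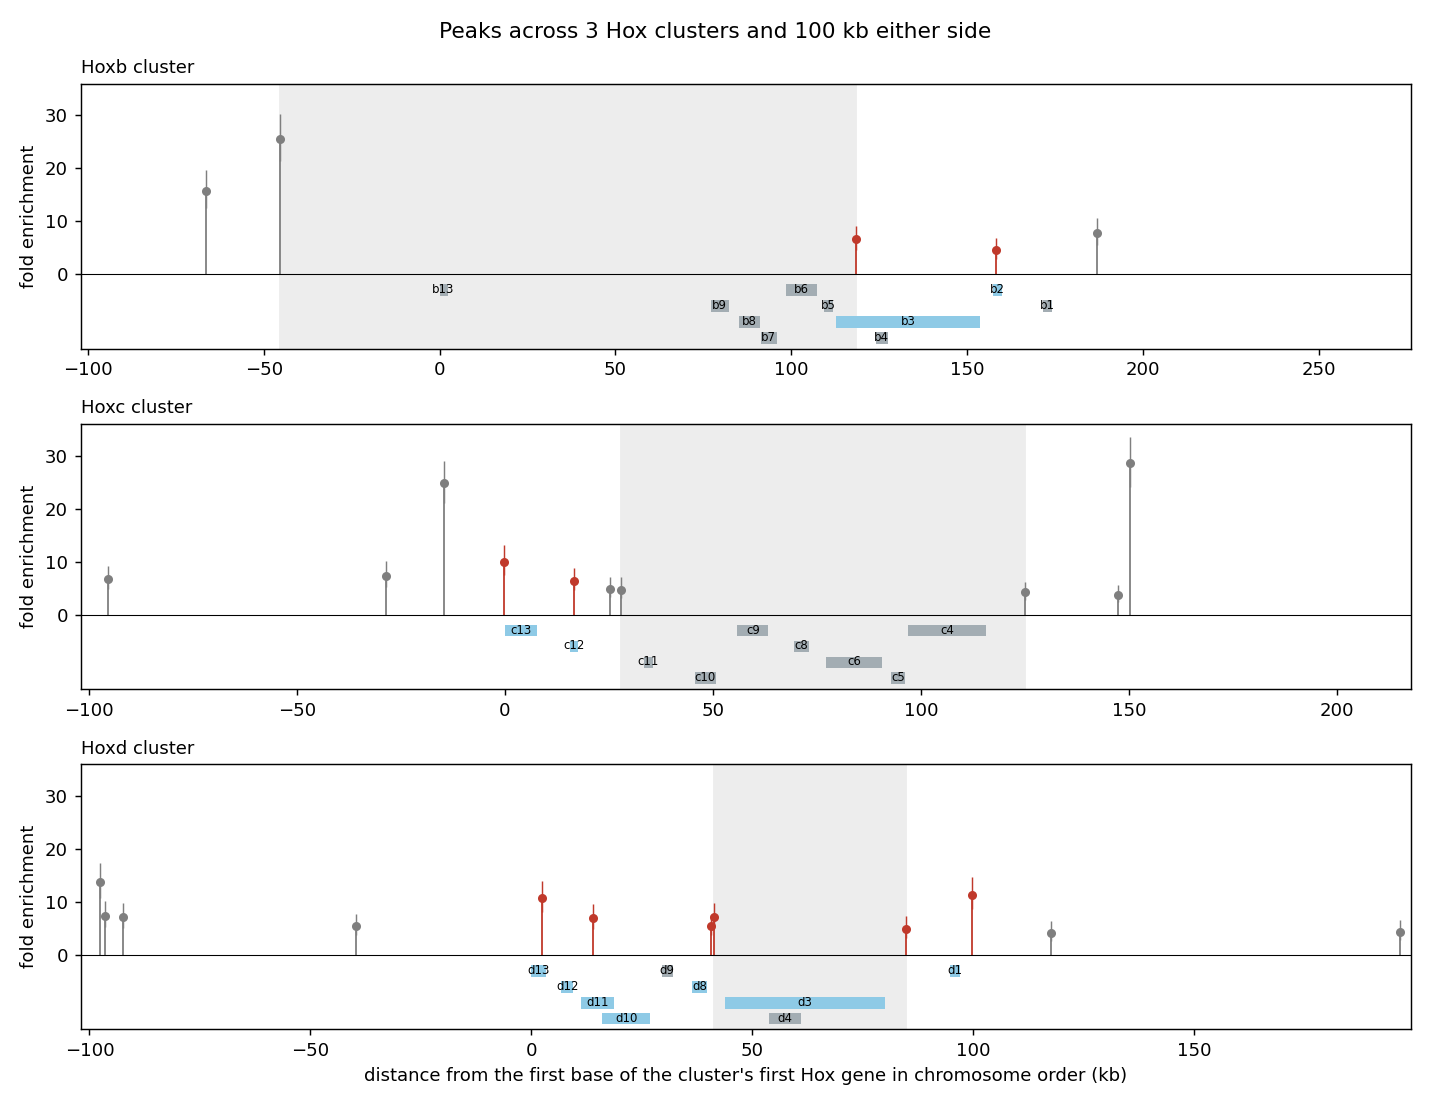
Fold enrichment (y axis) of each peak in the windows of the Hoxb, Hoxc and Hoxd clusters, against the distance in kb from the first base of the cluster's first *Hox* gene in chromosome order (x axis); bars on the points are 95% Poisson intervals of the pileup, red marks peaks at *Hox* genes, grey the others, and boxes below the line are the genes, blue with a peak. The grey band is the longest stretch without a summit that touches each cluster, from 43.4 kb in Hoxd to 164 kb in Hoxb.

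The sixth Hoxd peak fell on a promoter. Its summit, at 74682263, lay inside *Hoxd11*, 60 bp upstream of the second of the 2 transcript starts that the RefSeq promoter table holds for this gene, at 74682323 on the forward strand. It had 34 fragments and a fold enrichment of 6.98 (4.90 to 9.68), and it was also within 5 kb of *Hoxd10* (2010 bp) and *Hoxd12* (4558 bp). *Hoxd11* is a gene of the forearm and lower leg. The promoter sequence is shown because it alone held a summit among the 24 *Hox* promoter windows, which cover 22 of the 39 genes. The other genes had no window in which a promoter summit could be found. The 250 bases before this start, chr2:74682073-74682322 of GRCm38.p6 on the forward strand, read as follows from 5′ to 3′, with matches to AATCA in capitals.

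Hoxd11 second promoter: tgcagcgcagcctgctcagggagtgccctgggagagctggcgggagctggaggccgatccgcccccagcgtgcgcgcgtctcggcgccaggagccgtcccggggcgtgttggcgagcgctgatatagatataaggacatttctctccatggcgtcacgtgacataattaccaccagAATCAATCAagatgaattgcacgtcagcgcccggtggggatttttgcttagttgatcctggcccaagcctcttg

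The letters searched were TGATT and its reverse complement AATCA, the half-site of the Dux recognition sequence, on both strands. In the *Hoxd11* promoter 2 matches overlapped by a base in AATCAATCA, and the nearer of them ended 6 bp before the summit. The full palindrome of this half-site, TGATTNAATCA, was not among the letters of the window, nor was its inner part GATTNAATC, a shorter form chosen after the data were seen. Of all 32851 promoter windows (250 bases before to 50 after a start), 379 held a summit (1.15%), and of the *Hox* windows 1 of 24 did, for 22 of the 39 genes.

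Across all promoters, the half-site went with the peaks. TGATT was present in 302 of the 379 windows with a summit (79.7%) and in 36.5% of the 32472 windows without. GATTNAATC was present in 12.1% and 0.129% of these, and TGATTNAATCA in 1.85% and 0.0123%. The 3 patterns overlap, since the longer contain the shorter. Among the *Hox* windows 8 of 24 (33.3%) held TGATT, near the 37.0% of all windows, and none held GATTNAATC, which 0.268% of all windows did. By contrast TAAT, the short core common to many homeodomain sites, was in 19 of 24 *Hox* windows (79.2%) and in 58.0% of all windows. *Hox* promoters had a median GC content of 57.7%, against 52.7% for all and 50.7% for windows with a summit. A match is only a match of letters in this window and does not show a bound site.

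Half-sites in *Hox* promoters without a summit are shown beside the *Hoxd11* match for comparison, each with 10 bases either side, on the gene's own strand, with the match in capitals.

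Hoxd11, chr2:74682243-74682267, forward strand: caccagaatcAATCAagatgaattg
Hoxd8, chr2:74704545-74704569, forward strand: tgcaaggaccAATCAatccgtcaac
Hoxa2, chr6:52164868-52164892, reverse strand: gggcagaagcAATCAtgtgacagcc
Hoxb1, chr11:96365549-96365573, forward strand: gggctcagagTGATTgaagtgtctt

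These 3 promoters held half-sites but no summit: the nearest summit lay 4149 bp downstream of the *Hoxd8* start and 13241 bp upstream of the *Hoxb1* start. *Hoxd8* and *Hoxa2* each had 3 matches in the 250 bases before their start and *Hoxb1* had 2. These 3 promoters were picked as holding a match and no summit, so they cannot show whether TGATT went with a summit at *Hox* promoters. Of the 24 *Hox* windows 8 held TGATT and only 1 held a summit, too few for such a comparison. Over the 24 *Hox* promoter windows the median distance from the start to the nearest summit was 10314.5 bp, with 8 starts within 5 kb and 6 beyond 20 kb. No such distances are given for the promoters of other genes, so these values are not read as a result about *Hox* promoters.

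Sorted by paralogue group, peaks within 5 kb were counted at genes of both ends of the clusters and seldom at the genes between. In groups 1 to 3, the head-side genes, 6 of 8 had a peak, and in groups 9 to 13, the tail-side genes, 7 of 16 did. In groups 4 to 8 only *Hoxd8* of 15 genes did. Over all coding genes the same rule gave 43.2%, near the share of groups 9 to 13, whose 7 genes shared 5 peaks. The median distance to the nearest summit was 27353 bp for groups 4 to 8, against 2588.5 bp for groups 1 to 3 and 6136 bp for groups 9 to 13. Median gene lengths were 3575 bp in groups 1 to 3, 3737 bp in groups 4 to 8 and 3990 bp in groups 9 to 13. Group 3 alone had a median of 40830 bp, and in Hoxa, Hoxb and Hoxd its gene runs over the gene of group 4. The summit inside *Hoxb3* lay between *Hoxb5* and *Hoxb4*, 6557 and 5589 bp from them. Counts by class were not adjusted for these spans. In Hoxd 2 of 2, 1 of 2 and 4 of 5 genes of these classes had a peak. In Hoxa 0 of 4 genes of groups 4 to 8 and 1 of 4 of groups 9 to 13 did. In Hoxb the counts were 2 of 3, 0 of 5 and 0 of 2, so its tail-side genes had none. Hoxc has no gene of groups 1 to 3, and 0 of 4 and 2 of 5 genes of the other classes had a peak. The classes were formed after the values were seen and the genes share peaks, so the counts are a description with no test. No gene of groups 4, 5, 6, 7 and 9 had a peak within 5 kb in any cluster. Both genes of group 12 had one, *Hoxd12* only through summits 4379 and 4558 bp outside it. Group 12 was not the only group with a peak at every gene.

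**Figure D3:**
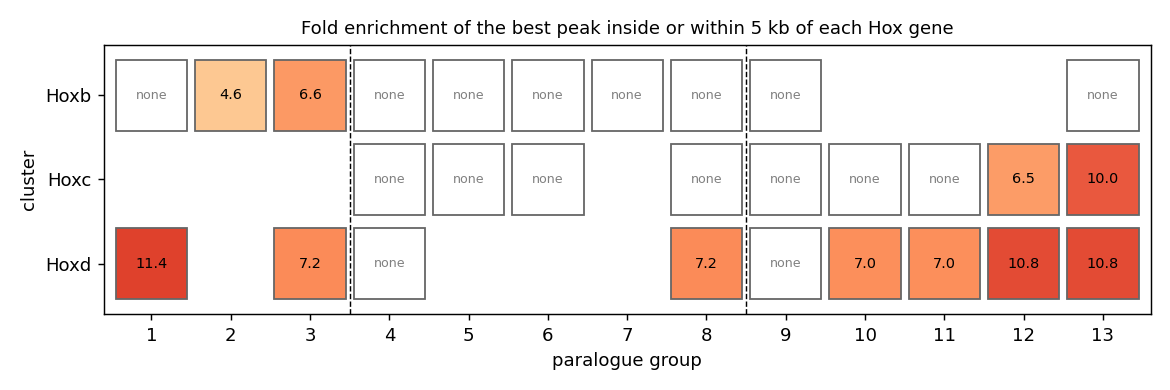
Each box is a *Hox* gene of the Hoxb, Hoxc and Hoxd clusters, placed by cluster (rows) and paralogue group (columns), with the fold enrichment of its best peak inside or within 5 kb printed and shaded; "none" marks a gene without a peak and an empty place a gene that the cluster lacks. Between the dashed lines *Hoxd8*, at 7.18, is the only gene with a peak, and the highest value shown, 11.4, belongs to *Hoxd1*.

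Genes without a peak lay at a wide range of distances from the nearest summit. For the 25 of them it lay 5589 to 45453 bp away (median 20166 bp), where the rule itself sets a lower limit of 5 kb. Neighbouring summits on the autosomes and X were a median of 27.5 kb apart, and no such distances were computed for other coding genes. The threshold of 5 kb fell between *Hoxd12* (4379 bp, 10.8-fold) on the near side and *Hoxb4* (5589 bp, 6.58-fold), *Hoxc11* (5590 bp, 4.75-fold), *Hoxb5* (6557 bp, 6.58-fold) and *Hoxa10* (6682 bp, 7.18-fold) on the far side. A summit inside the gene was found for 6 of 39 *Hox* genes (15.4%; all coding genes 32.2%), inside or within 1 kb for 8 (20.5%; 35.0%) and inside or within 20 kb for 26 (66.7%; 62.2%). The *Hox* share was thus below that of all coding genes at short distances and near it at 20 kb, in a comparison not adjusted for the short length of *Hox* genes.

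In 3 of the 4 clusters a long stretch without any summit covered most of the genes. In Hoxa it ran for 89.3 kb and ended at the *Hoxa11* peak, with 9 whole genes. In Hoxb it ran for 164 kb, from the flank beyond *Hoxb13* to *Hoxb3*, with 6 genes, and in Hoxc for 97.3 kb, with all 7 genes from *Hoxc11* to *Hoxc4*. The longest stretch in Hoxd was 43.4 kb, with *Hoxd3* and *Hoxd4*. A gene inside a stretch can still lie within 5 kb of the summit that ends it, as *Hoxa11* and *Hoxd3* did, so not all of these genes lacked a peak. Such lengths are common in this peak list: of all bases between neighbouring summits on the autosomes and X, 54.6% lay in stretches at least as long as that of Hoxa, 28.6% for Hoxb, 51.0% for Hoxc and 79.9% for Hoxd. The stretches were chosen as the longest in each cluster, and bases to which reads cannot be mapped were not taken out.

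**Figure D4:**
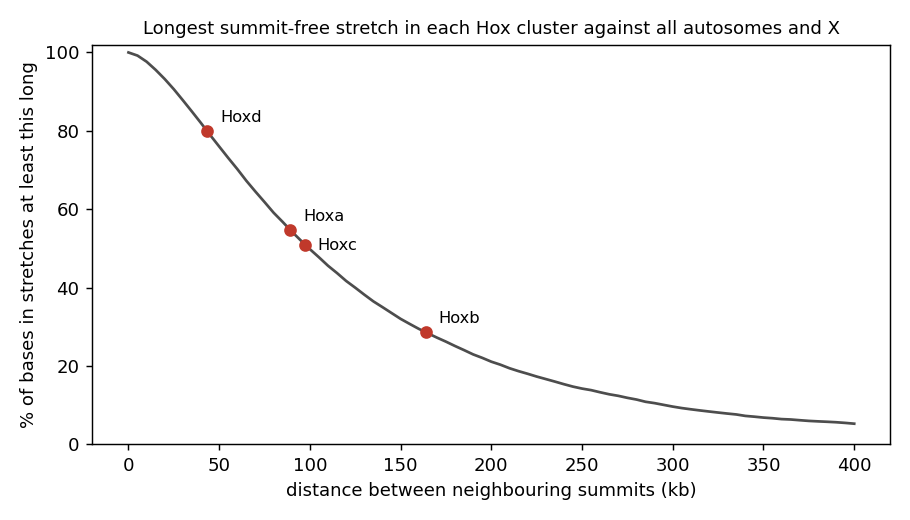
Share of all bases between neighbouring summits (y axis, %) that lie in stretches at least as long as the distance on the x axis (kb), over the autosomes and X, with the longest stretch of each *Hox* cluster as a red point. The points run from 28.6% for Hoxb to 79.9% for Hoxd, so stretches of these lengths hold a large share of the genome.

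Peak density between the *Hox* genes was within counting error of that of the flanks and of the genome. Between the first and the last gene of the 4 clusters together, 12 peaks in 492 kb gave 2.44 peaks per 100 kb (exact Poisson 95% interval 1.26 to 4.26), and the flanks gave 3.0 (1.92 to 4.46). The autosomes and X had 1.952 per 100 kb, a value inside both intervals. The 4 whole windows together held 36 peaks, or 2.786 per 100 kb (1.951 to 3.857). The value of the autosomes and X lay at the lower edge of that interval. By cluster, the whole window had 4.04 (2.09 to 7.06) for Hoxd against 1.98 on chromosome 2, 2.95 (1.35 to 5.59) for Hoxa against 1.79 on chromosome 6, 3.17 (1.52 to 5.82) for Hoxc against 2.78 on chromosome 15 and 1.34 (0.434 to 3.12) for Hoxb against 1.87 on chromosome 11. The Hoxd window alone had an interval that did not reach the value of its chromosome, and it was the highest of 4.

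The 3 strongest peaks of the windows lay in the flanks, away from the *Hox* genes. In the Hoxc window, a peak at 103071446, 34590 bp from *Hoxc4*, had 143 fragments and 28.6-fold enrichment (24.1 to 33.6), and another at 102906488, 14643 bp from *Hoxc13*, had 149 fragments and 24.8-fold (21.0 to 29.1). Beside Hoxb the summits at 96148863 (127 fragments, 25.5-fold, 21.3 to 30.3) and 96128010 (78 fragments, 15.8-fold, 12.5 to 19.6) both fell inside *Ttll6*, which encodes a tubulin-modifying enzyme. Beside Hoxa the strongest was at 52321768, 3379 bp from *Evx1*, the homeobox gene next to *Hoxa13*, with 84 fragments and 14.1-fold (11.2 to 17.4). *Evx1* had a further peak 1697 bp away with 19 fragments, whereas *Evx2*, the corresponding gene next to *Hoxd13*, lay 9114 bp from its nearest summit and had none by the rule. Beside Hoxd the strongest, at 74570514 in *Lnpk* with 68 fragments, reached 13.8-fold (10.7 to 17.4). Median fold enrichment was 7.38 over the 24 flank peaks and 6.52 over the 12 between the first and last genes.

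The next peaks in strength in each flank were lower. Beside Hoxa, summits at 52357302 and 52334472, 96422 and 73592 bp from *Hoxa13*, had 46 and 44 fragments (9.37-fold and 8.98-fold). On the other side of Hoxb, past *Hoxb1* by 12934 bp, 38 fragments gave 7.78-fold. In the Hoxd flanks the peak past *Hoxd1* described above came next, followed by 2 more peaks in *Lnpk* with 36 and 35 fragments. In the Hoxc flanks the peak at *Hoxc13* described above came next, after the 2 stronger peaks. Whether any of these acts on a *Hox* gene was not measured.

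Noncoding genes lie between the *Hox* genes, and 15 of the 48 noncoding genes and pseudogenes in the windows had a summit inside or within 5 kb, 8 of them inside. Over all 28097 noncoding genes and pseudogenes the shares were 25.7% and 11.1%, and the windows' genes overlap and share summits, so these counts are not read as a result. *Hotair*, the Hoxc noncoding RNA known for its link to Polycomb, contained a summit at 102946455 with 25 fragments (4.92-fold, 3.25 to 7.18), and a second of 23 fragments (4.75-fold) lay within 5 kb of it. These 2 peaks lay in the space between *Hoxc12* and *Hoxc11*, more than 5 kb from either gene. *Hottip*, *Halr1*, *Hoxaas2* and *Hoxaas3* had none within 5 kb. *Hoxd3os1* lay 428 bp from the peak at 74709616, and *Gm38462* contained both peaks found near *Hoxd8*. Where a summit lies inside a *Hox* gene and an overlapping noncoding gene, these data cannot assign it to either. Other noncoding genes with a peak were *LOC115490410* beside *Hoxa11*, *Gm30528* beyond *Hoxc4* (summit inside, 4.24-fold), *Gm14424* within *Haglr*, and *4930445N08Rik*, *Gm22975* and *Gm31790* on the *Lnpk* side of Hoxd. Of the 7 other coding genes that reach into the windows 5 had a peak within them, against a share of 43.2% of all coding genes: *Evx1*, *Ttll6* and *Lnpk* as above, *Calcoco2* (15.8-fold, 3450 bp away) and *Mtx2* (summit inside, 4.39-fold). With *Skap1*, which runs past its window and holds a summit beyond it, 6 of the 7 met the rule.

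The clusters also carry microRNA genes, short RNAs that repress target transcripts through their seed, bases 2 to 8. A peak within 5 kb was found for *Mir10a* alone, 4487 bp from the summit in *Hoxb3* (6.58-fold). *Mir10b*, its relative in the Hoxd cluster, lay 16454 bp from the nearest summit. *Mir196b* lay 17371 bp, *Mir196a-2* 24414 bp, *Mir615* 31231 bp and *Mir196a-1* 47413 bp from theirs. Mature sequences of the miR-10 and miR-196 genes are shown with their seed in capitals, since genes with the same seed lie in different clusters.

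mmu-miR-10a-5p: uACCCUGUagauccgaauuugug
mmu-miR-10b-5p: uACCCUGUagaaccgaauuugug
mmu-miR-196a-5p: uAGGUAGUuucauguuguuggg
mmu-miR-196b-5p: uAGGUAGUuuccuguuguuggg

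Both miR-10 forms share the seed ACCCUGU, and both miR-196 forms share AGGUAGU. Of the miR-10 genes *Mir10a* had a peak within 5 kb and *Mir10b* had none, and no miR-196 gene had one.

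Genes that work with *Hox* genes were examined under the same rule, in 5 lists. Of the 62 genes, 29 had a peak, near the share of 43.2% of all coding genes. TALE-class cofactors, homeodomain proteins that bind DNA together with Hox proteins, had a peak in 7 of 9 cases. Examples were *Meis1* (341 fragments, 68.2-fold) and *Meis2* (65 fragments, 13.2-fold), with *Pbx3* (82 fragments, 16.6-fold) 886 bp outside its gene. *Pbx2* and *Pbx4* had none. Of these genes 5 are 100 kb or longer and all 5 had a peak, where 92.7% of all coding genes of that length did, and 2 of the 4 shorter ones had a peak. The count is not read as a result about the list.

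Polycomb genes, whose products silence *Hox* clusters, had a peak in 9 of 18 cases, against 43.2% of all coding genes. Examples were *Mtf2* (19.3-fold), *Bmi1* (19.0-fold), *Jarid2* (17.8-fold) and *Phc3* (15.4-fold, tied with *Eed*), whereas *Suz12*, *Ezh1*, *Ring1* and all 4 Cbx genes of the list had none. The opposing trithorax and activating genes had a peak in 5 of 10 cases, led by *Kdm6a*, a demethylase of the Polycomb histone mark (48.7-fold), *Dpy30* (21.3-fold), *Kmt2a* (20.1-fold) and *Kdm6b* (4.39-fold). Among upstream regulators 5 of 12 had a peak. *Rarb*, a retinoic acid receptor, had 372 fragments and 74.4-fold enrichment at the best of its 14 peaks, in a gene of 651 kb. *Rarg* had 22.4-fold, *Aldh1a2*, which makes retinoic acid, 8.38-fold and *Wnt3a* 6.98-fold. The extended Hox and ParaHox genes had a peak in 3 of 13 cases: *Meox2* (27.7-fold), *Pdx1* (18.9-fold) and *Evx1* (14.1-fold). *Cdx1*, *Cdx2* and *Cdx4*, activators of *Hox* transcription, had none. The 5 shares were not tested against the 43.2% of all coding genes and were not adjusted for gene length. Median length ran from 6.35 kb in the extended Hox and ParaHox list to 139 kb in the TALE list. None of these counts is read as a result about its list.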

How the data were processed

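ChIP-seq was carried out on C2C12 cells of a single MMH clone, and the 2 libraries were grouped by their antibody labels. The submitters' processing notes name BWA, MACS2 and mm10. MACS 2.1.0.20151222 was run by the authors in paired-end mode, antisera against control, with a q-value threshold of 0.01 and no more than 1 fragment kept per position, as recorded per the file headers. Alignment settings were not given in those sources.

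As deposited, pileup is a coverage signal at the summit, with no scaling stated. The deposited fold enrichment is a ratio of pileup to local background with a pseudocount of 1, and the authors' caller gave −log10 p-values and q-values for each peak. The background was recovered from pileup and fold, and the Poisson −log10 p recomputed from it was within 1% in 100% of 50196 peaks for which it was finite.

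Gene spans and sequences came from RefSeq GRCm38.p6, without exons or UTRs. Of the 39 genes, 22 had promoter windows, which also gave strand. Counts and intervals were computed in Python 3.11.15 with scipy 1.17.1, and counting was tested on simulated data. Each gene was described by its best peak by −log10 p, flanks by their 3 strongest peaks and each list by at most 4 genes with a peak. Genes named as lacking a peak, the paralogue classes, GATTNAATC and the longest stretches were chosen after values were seen. Some members and listed genes are counted but not reported here by name. Members and lists were chosen with earlier results of these data known. Alternatives were stricter peaks, other distances, peak overlap and other flanks.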

Additional observations from a re-analysis of the deposited data

How the results depend on the processing

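The number of *Hox* genes with a peak was 14. It was 13 or 14 when peaks were limited to −log10 q of 5 or 10 or more, to pileups above 25 or to backgrounds under 10, when only gene ends counted, and with 1 bp of overlap in place of the summit. With gene ends only, the share of all coding genes was 27.5%, below the 35.9% of *Hox* genes, so that the order against all coding genes was reversed. Distance changed the number of *Hox* genes: 6 with the summit inside the gene, 8 within 1 kb, 9 within 2 kb and 26 within 20 kb. The shares of all coding genes under these rules also rose, at 32.2%, 35.0%, 37.3% and 62.2%. Among the strongest 10% of peaks the number of *Hox* genes was 0, where 8.88% of all coding genes had a peak. Limiting to the strongest 10% keeps 5137 of all 51356 peaks by definition, with a median fold enrichment of 33.1. The windows then held 3 of their 36 peaks, with a median fold enrichment of 25.5. Their density was 0.232 per 100 kb, against 2.79 with all peaks, a drop that the setting itself brings and that is not read as a result about the windows. Without flanks they held 12 peaks. The other alternatives left the number of peaks within 1.5 times, and the density and median fold enrichment within their 95% intervals. In the classes of paralogue groups 1 to 3, 4 to 8 and 9 to 13, which had 6, 1 and 7 genes with a peak, the counts within 20 kb were 8 of 8, 6 of 15 and 12 of 16, and inside the gene 3, 0 and 3. The shares of all coding genes under these 2 rules were 62.2% and 32.2%. Since the classes were formed after the values were seen, these counts are a description with no test. The depth of 1 library per antibody limits all values to this list. Weak peaks such as that of *Hoxb2* rest on few fragments, and a gene without a peak may hold enrichment that did not pass the authors' threshold. No paired analysis was possible because each group has a single library.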
